A study of Arabidopsis thaliana with 9 samples.

Results

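The early flavonoid and flavonol genes of Arabidopsis thaliana, 9 loci in all, were followed in the vegetative part of seedlings of 3 genotypes. The loci were chosen by their place in the pathway: chalcone synthase (CHS, AT5G13930), chalcone isomerase (CHI, AT3G55120), the chalcone isomerase-like protein gene CHIL (AT5G05270), flavanone 3-hydroxylase (F3H, AT3G51240), flavonoid 3'-hydroxylase (F3'H, AT5G07990), flavonol synthase 1 (FLS1, AT5G08640), the flavonol glycosyltransferase gene UGT78D1 (AT1G30530) and the transcription factor genes MYB12 (AT2G47460) and MYB111 (AT5G49330). They were chosen with earlier results of these data known. All 9 were among the 20777 loci of the expression table. The study compared routes to larger leaves in ecotype Col-0 at growth stage 1.03, on MS medium with 16 h light and 8 h dark at 22 °C. It used 3 Affymetrix ATH1 arrays, labelled as biological replicates, for each genotype, which were 35S::GA20OX, 35S::JAW and wild type. The first line overexpresses a gibberellin 20-oxidase, which catalyses late steps in making this growth hormone. The second overexpresses a microRNA of the miR319 family, which directs the cleavage of transcripts from 5 TCP transcription factor genes. No treatment and no allele beside the transgenes is labelled. The 35S promoter is active in most tissues, so neither transgene is restricted to the leaf. How many independent transformants each line stands for is not given in the sources used here. A GRF5-overexpressing line that the series text names is not analysed here.

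Flavonoids are made from a phenylpropanoid precursor that CHS joins to malonyl units to form a chalcone, the first committed step of the pathway. CHI closes the ring, CHIL raises the output of CHS, F3H hydroxylates the product, and F3'H adds the second hydroxyl group of the B ring that separates quercetin from kaempferol. FLS1 turns the resulting dihydroflavonols into flavonols, the branch that competes with dihydroflavonol reductase (DFR) and the anthocyanins, and UGT78D1 attaches rhamnose to the flavonols. MYB12 and MYB111 activate CHS, CHI, F3H and FLS1 directly, whereas the late anthocyanin genes depend on a complex of MYB, bHLH and WD40 proteins that includes PAP1. In leaves flavonols accumulate largely in the epidermis and absorb UV light.

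The transgenes left their marks on the arrays. GA20OX1 had a mean log2 value of 12.96 in 35S::GA20OX and 6.06 in wild type, and all 5 TCP target genes were lower in 35S::JAW, by 1.83 to 3.43 on the log2 scale (limma adjusted p at most 9.29e-07). GA20OX1 was also lower in 35S::JAW than in wild type, with a mean of 5.21 (-0.85 ± 0.09, limma adjusted p = 0.000235). Array medians lay between 6.35 and 6.41. The 2 measured of 4 leaf markers, CA1 and RCA, lay between 13.65 and 14.32 on every array, and the 4 epidermis markers between 9.86 and 11.14. The 5 root, 4 floral and 3 seed storage markers all lay between 3.25 and 5.37. None of these 18 measured markers was called by limma in any of the 3 comparisons, and 1, a floral marker, had an unadjusted p under 0.05, between the transgenic lines. Per array, the mean over the epidermis markers was 10.54 to 10.58 in wild type, 10.57 to 10.61 in 35S::GA20OX and 10.51 to 10.62 in 35S::JAW. In whole tissue, fewer cells of a type and less transcript per cell cannot be told apart.

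The early genes did not move as a block. In 35S::GA20OX, CHS was 1.91-fold lower than in wild type, and the other 8 genes did not pass the threshold, although FLS1 came close. In 35S::JAW none of the 9 differed from wild type beyond the threshold. Set directly against each other, the lines differed in 4 genes, CHS, F3'H, FLS1 and MYB111, all higher in 35S::JAW. Of the late anthocyanin genes, DFR and GSTF12 were lower there and BGLU10 was higher. The words called, rose and fell are used where limma, fitted over all loci, gave a Benjamini-Hochberg adjusted p under 0.05. Values are log2 expression, differences are log2 differences with their standard error (SE), and intervals are 95% intervals.

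CHS had log2 values of 9.54, 9.38 and 9.82 on the 3 wild-type arrays, 8.61, 8.91 and 8.44 on the 35S::GA20OX arrays, and 9.37, 9.36 and 9.27 on the 35S::JAW arrays. Every 35S::GA20OX array lay below every array of the other genotypes, and the 35S::JAW arrays lay just below the lowest wild-type array. The difference of 35S::GA20OX from wild type was -0.93 ± 0.13 (SE, adjusted p = 0.014). That of 35S::JAW from wild type was -0.25 ± 0.13 (adjusted p = 0.298), with an interval from -0.53 to 0.03. The entry enzyme of the pathway was called in 1 of the lines, and the direct difference between the lines was called too, with 35S::JAW higher by 0.68 ± 0.13 (adjusted p = 0.00482). The call against wild type was lost without wild type replicate 3 (-0.81, adjusted p = 0.0538) and without 35S::GA20OX replicate 1 (-0.91, adjusted p = 0.0536). The call between the lines was kept in all 9 fits that left out 1 array, with adjusted p up to 0.0206.

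CHI and CHIL, which act next to CHS, stayed close to wild type. CHI read 8.06, 7.87 and 8.13 in wild type, 7.95, 8.04 and 8.00 in 35S::GA20OX, and 7.95, 8.08 and 7.95 in 35S::JAW. The genotypes overlapped fully, and both lines differed from wild type by -0.03 ± 0.08, with an interval from -0.20 to 0.15 in each. CHIL read 7.84, 7.77 and 7.79 in wild type, 7.58, 7.48 and 7.85 in 35S::GA20OX, and 7.97, 7.78 and 7.70 in 35S::JAW. In 35S::GA20OX replicates 1 and 2 lay below all other arrays and replicate 3 did not. The CHIL difference was -0.17 ± 0.10 in 35S::GA20OX (interval -0.39 to 0.05) and 0.01 ± 0.10 in 35S::JAW (interval -0.21 to 0.23). For CHI a change of the size seen in CHS lies outside these intervals.

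The hydroxylase genes F3H and F3'H behaved differently from each other. F3H read 7.70, 7.54 and 7.93 in wild type, 7.38, 7.59 and 7.60 in 35S::GA20OX, and 7.61, 7.37 and 7.59 in 35S::JAW. Both lines had a mean of 7.52 against 7.72, a difference of -0.20 ± 0.11 in each (adjusted p = 0.562 and 0.338), and the groups overlapped. F3'H read 5.24, 5.47 and 5.58 in wild type, 4.99, 5.32 and 5.04 in 35S::GA20OX, and 5.68, 6.02 and 5.71 in 35S::JAW. Its lowest 35S::JAW array was above the highest array of wild type and of 35S::GA20OX, while 35S::GA20OX replicate 2 lay within the wild-type range. Against wild type neither line was called for F3'H, with -0.31 ± 0.12 in 35S::GA20OX (adjusted p = 0.402) and 0.37 ± 0.12 in 35S::JAW (adjusted p = 0.0976). Between the lines F3'H was called, higher in 35S::JAW by 0.68 ± 0.12 or 1.61-fold (adjusted p = 0.00359), and this call was kept in all 9 fits with 1 array left out.

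FLS1 and UGT78D1, the flavonol-forming and flavonol-glycosylating steps, went in opposite directions in 35S::GA20OX without passing the threshold. FLS1 read 7.75, 7.68 and 7.75 in wild type, 7.08, 7.20 and 6.94 in 35S::GA20OX, and 7.72, 7.79 and 7.28 in 35S::JAW. All 35S::GA20OX arrays were below all other arrays, and 35S::JAW replicate 3 lay apart from the other two of its genotype. The difference of 35S::GA20OX from wild type was -0.66 ± 0.12, with an interval from -0.92 to -0.39 (adjusted p = 0.0524). It passed the threshold without 35S::JAW replicate 3 (adjusted p = 0.00968) and without 35S::JAW replicate 2 (adjusted p = 0.0395), where the value itself does not change. In each fit without a wild-type or 35S::GA20OX array it moved away from the threshold (adjusted p from 0.091 to 0.194). In 35S::JAW the difference from wild type was -0.13 ± 0.12 (adjusted p = 0.611), and it was 0.025 without replicate 3. Between the lines FLS1 was called, higher in 35S::JAW by 0.53 ± 0.12 (adjusted p = 0.0143), and the call was lost without 35S::GA20OX replicate 3 (0.46, adjusted p = 0.0611) and without 35S::JAW replicate 1 (0.47, adjusted p = 0.0584).

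UGT78D1 read 8.92, 8.60 and 8.81 in wild type, 9.04, 8.94 and 9.03 in 35S::GA20OX, and 8.83, 8.88 and 8.76 in 35S::JAW. It was the 1 gene of the 9 whose 35S::GA20OX arrays lay above all arrays of both other genotypes. The difference from wild type was 0.23 ± 0.08 in 35S::GA20OX (adjusted p = 0.368) and 0.05 ± 0.08 in 35S::JAW (adjusted p = 0.806). UGT78D1 has similar neighbours in the UGT78D family and FLS1 has relatives in the FLS family, and probes shared between such loci were not checked.

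The regulators MYB12 and MYB111, close relatives that activate the same early genes, were measured at low values. MYB12 read 4.40, 4.53 and 4.56 in wild type, 4.58, 4.54 and 4.58 in 35S::GA20OX, and 4.66, 4.68 and 4.60 in 35S::JAW. The lower quartiles of the arrays were 4.28 to 4.42, no detection calls are in the table, and RMA compresses changes of dim genes, so a change of MYB12 could be understated. Its differences from wild type were 0.07 ± 0.07 in 35S::GA20OX and 0.15 ± 0.07 in 35S::JAW (adjusted p = 0.766 and 0.216). MYB111 read 5.04, 5.08 and 4.92 in wild type, 4.51, 4.94 and 4.59 in 35S::GA20OX, and 5.19, 5.39 and 5.38 in 35S::JAW. The 35S::JAW arrays were the highest 3 of the 9, and 35S::GA20OX replicates 1 and 3 were the lowest. Against wild type MYB111 differed by -0.33 ± 0.11 in 35S::GA20OX (adjusted p = 0.304) and by 0.31 ± 0.11 in 35S::JAW (adjusted p = 0.124). Between the lines it was called, higher in 35S::JAW by 0.64 ± 0.11 or 1.56-fold (adjusted p = 0.00274), in all 9 fits with 1 array left out as well. The 35S::GA20OX values of 4.51 and 4.59 lay little above the lower quartiles, so the size of this difference is uncertain.

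**Figure D1:**
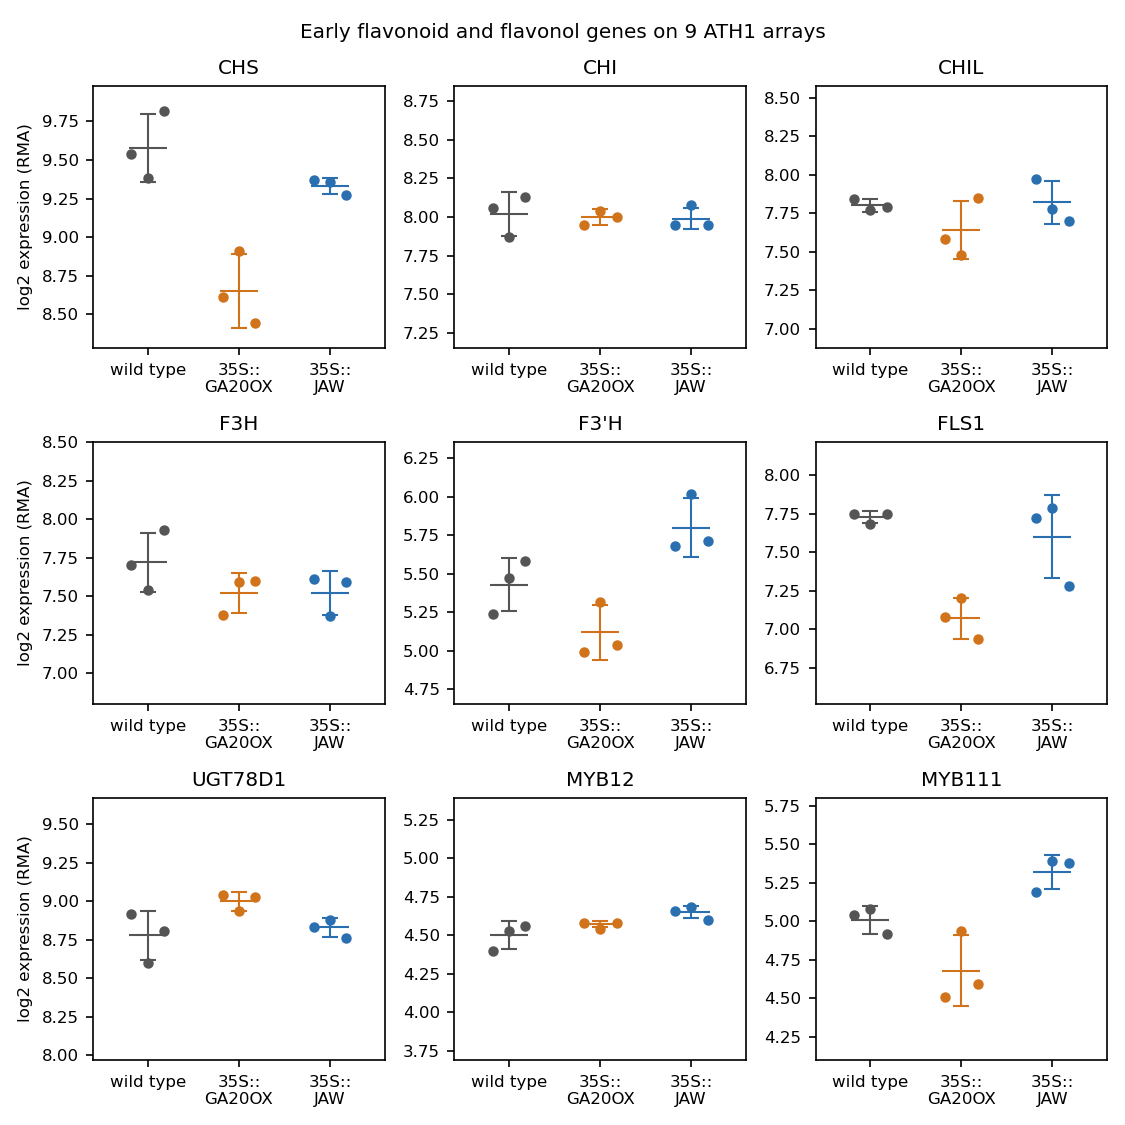
Log2 expression (RMA, vertical axis) of each of the 9 genes on 9 arrays, by genotype. Points are arrays in replicate order, long bars are means, error bars are SD (n = 3), and all panels span the same range of log2 units. CHS and FLS1 are lowest in 35S::GA20OX on all 3 arrays, and F3'H and MYB111 are highest in 35S::JAW on all 3.

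For 35S::GA20OX against wild type, which asks what more gibberellin synthesis does to these transcripts, 1 of the 9 genes fell and 0 rose, with 5 at an unadjusted p under 0.05. Over all loci 0.168% were called lower and 0.164% higher, 0.332% together. The median difference of the 9 was -0.20, against 0.00 over all loci, and 7 of the 9 values were negative. CHS and FLS1 were lower and UGT78D1 higher without overlap between arrays, 3 of 9 genes, where 8.3% of all loci were lower and 8.53% higher without overlap, 16.8% together. For 35S::JAW against wild type, which asks the same where the TCP genes are reduced, 0 of the 9 were called in limma, 3 had an unadjusted p under 0.05 (F3'H, MYB111 and MYB12), and 8.32% of all loci were called, 4.34% higher and 3.98% lower. The median of the 9 was 0.01, as over all loci. Without overlap, CHS was lower and F3'H, MYB12 and MYB111 were higher, 4 of 9 genes, against 25.6% of all loci, 14.2% higher and 11.4% lower. F3'H passed in the fit with the replicate number as a block (adjusted p = 0.0313), and MYB111 passed without 35S::GA20OX replicate 2 (adjusted p = 0.0397).

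The direct comparison of 35S::JAW with 35S::GA20OX tests whether the lines differ, and it does not use the wild-type arrays other than for the estimate of spread. CHS, F3'H, FLS1 and MYB111 were higher in 35S::JAW, 4 of 9 genes, and 0 were lower, with 4 at an unadjusted p under 0.05. Over all loci 6.71% were called higher and 6.52% lower, 13.2% together. These 4 and MYB12 were higher, and UGT78D1 was lower, without overlap, 6 of 9 genes against 30.2% of all loci (15.9% higher and 14.3% lower). The median of the 9 was 0.18, against 0.01 over all loci. CHI and F3H differed by less than 0.01 with intervals from -0.18 to 0.17 and from -0.24 to 0.24. The difference of UGT78D1 was -0.18 ± 0.08 (adjusted p = 0.214), that of CHIL was 0.18 ± 0.10 (adjusted p = 0.304) and that of MYB12 was 0.08 ± 0.07 (adjusted p = 0.513). For F3'H and MYB111 the gap between the lines was made up of values on either side of wild type, neither called on its own. For CHS and FLS1 the means of both lines lay below that of wild type, with 35S::GA20OX the lower. The 3 comparisons share arrays, so their values are not independent of each other. The 9 genes were chosen with earlier results of these data known, so their shares beside those of all loci are a description.

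**Figure D2:**
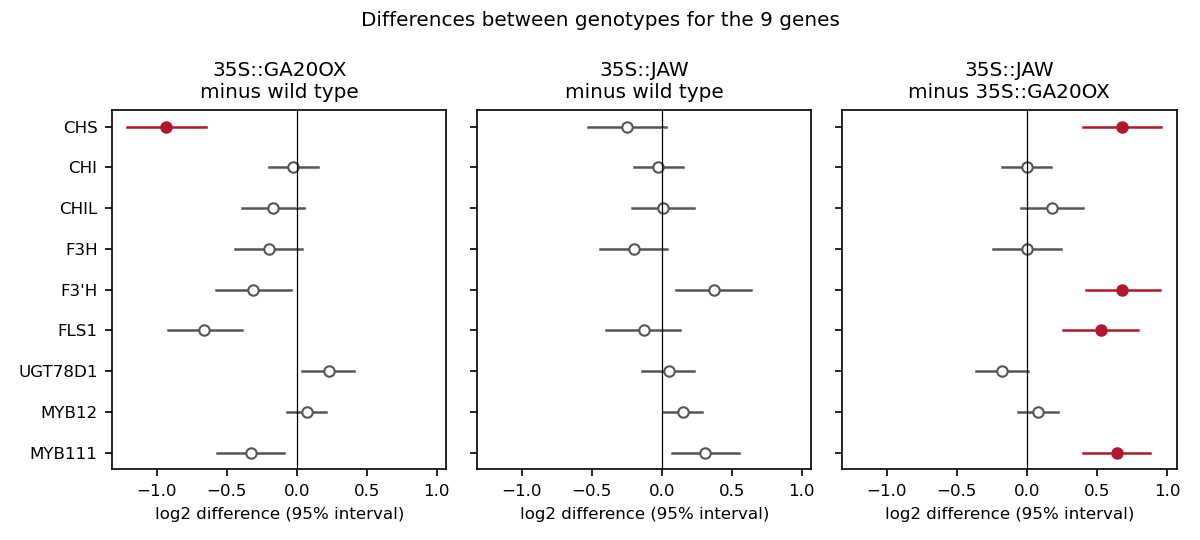
Log2 difference (horizontal axis) of each of the 9 genes in the 3 comparisons, with 95% intervals as lines. Filled red points were called at an adjusted p under 0.05 and open points were not: CHS on the left at -0.93, none in the middle, and CHS, F3'H, FLS1 and MYB111 on the right between 0.53 and 0.68.

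Among themselves the 9 genes varied together only in part. Over the 9 arrays, which differ by genotype and share 1 normalization, Pearson's r was 0.91 between CHS and FLS1, 0.90 between F3'H and MYB111, and 0.65 between CHS and MYB111. UGT78D1 ran against CHS (-0.66) and MYB111 (-0.63). When each genotype's mean was first subtracted, r was 0.51 for CHS with FLS1, 0.53 for F3'H with MYB111 and 0.27 for CHS with MYB111, and that of UGT78D1 with CHS was 0.16. Over all 36 pairs the median of these within-genotype values was 0.14 and 24 were positive. The pairs closest within genotypes were others, CHS with CHI (0.67, against 0.34 over all arrays) and CHI with UGT78D1 (0.66, against 0.35). At the other end CHIL with MYB111 had -0.61. These are the extremes of 36 pairs on 9 arrays, so they are a description. The SD within a genotype, pooled over the genotypes, was 0.19 for CHS, 0.18 for F3'H and FLS1, 0.16 for MYB111 and 0.06 for MYB12, with a median of 0.103 over all loci.

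The loci outside the 9 whose pattern over the 9 arrays was most like that of CHS were AT5G60160 (r = 0.952), the histidine phosphotransfer gene AHP1 (AT3G21510, 0.948), the UDP-glucose epimerase gene UGE2 (AT4G23920, 0.948), AT5G10740 (0.945) and the aldehyde dehydrogenase gene ALDH3H1 (AT1G44170, 0.944). Each had a smaller difference than CHS in 35S::GA20OX, between -0.31 and -0.23, and none of them was called there. The loci most like the mean standardised profile of the 7 enzyme genes were AT3G21390 (0.952), the superoxide dismutase gene CSD3 (AT5G18100, 0.947), LCBK2 (AT2G46090, 0.930), AT2G18750 (0.928) and TROL (AT4G01050, 0.926). With 20777 loci and 9 arrays, values of this size are a description of these arrays.

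In the late anthocyanin branch, DFR and GSTF12 had another order of genotypes. DFR, which draws dihydroflavonols from FLS1 into the anthocyanin branch, read 7.54, 7.06 and 7.64 in wild type, 6.50, 6.66 and 6.76 in 35S::GA20OX, and 5.92, 5.49 and 5.51 in 35S::JAW. The 3 genotypes did not overlap and 35S::JAW was lowest. DFR fell in 35S::JAW (-1.78 ± 0.16, adjusted p = 3.91e-05), had -0.78 ± 0.16 in 35S::GA20OX (adjusted p = 0.0786), and was lower in 35S::JAW than in 35S::GA20OX (-1.0 ± 0.16, adjusted p = 0.00157). GSTF12, needed for anthocyanin transport to the vacuole, showed the same order, with means of 7.44, 6.68 and 6.07 and a difference between the lines of -0.61 ± 0.11 (adjusted p = 0.00362). Both calls between the lines were kept in all 9 fits with 1 array left out. DFR and GSTF12 had their lowest values in 35S::JAW, whereas CHS and FLS1 had theirs in 35S::GA20OX. Of the other late genes, UGT75C1 and UGT79B1 also had their lowest means in 35S::JAW. Their differences between the lines, -0.35 ± 0.12 and -0.34 ± 0.13, were not called. BGLU10 and 5MAT had their lowest means in 35S::GA20OX, with 8.23 and 4.69 against 8.51 and 4.74 in 35S::JAW. The 5MAT difference was not called.

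The late anthocyanin list had 6 measured genes of 10. In 35S::JAW 5 of them fell and 0 rose, against 3.98% lower and 4.34% higher over all loci, with a median of -1.11. Beside DFR these were GSTF12 (-1.37 ± 0.11), the glucosyltransferase gene UGT75C1 (-1.14 ± 0.12), UGT79B1 (-1.07 ± 0.13) and the malonyltransferase gene 5MAT. In 35S::GA20OX 4 of the 6 fell, against 0.168% of all loci, with a median of -0.75. These were GSTF12 (-0.76 ± 0.11), UGT75C1 (-0.79 ± 0.12), UGT79B1 (-0.73 ± 0.13) and 5MAT (-0.62 ± 0.11). The 5MAT call was lost with the replicate number as a block (adjusted p = 0.0684), with median centring (adjusted p = 0.0579) and in the fit to 6 arrays (adjusted p = 0.0683). Each of these 4 calls was lost in 4 to 8 of the 9 fits that left out 1 array, with adjusted p up to 0.165, and leaving out any 1 of 8 arrays, all but 35S::JAW replicate 2, ended at least 1 of them. The 5 calls in 35S::JAW were kept in all 9 such fits. Between the lines DFR and GSTF12 were lower in 35S::JAW and the acyl-glucose-dependent glucosyltransferase gene BGLU10 was higher (0.28 ± 0.07). The BGLU10 call was lost without any 1 of the 35S::GA20OX arrays and without 35S::JAW replicates 1 or 2 (adjusted p up to 0.0677).

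Of the regulators of that branch, PAP1 (AT1G56650), the MYB activator of the late genes, was called in each line. It read 5.05, 5.01 and 5.10 in wild type, 4.36, 4.36 and 4.50 in 35S::GA20OX, and 4.21, 4.25 and 4.07 in 35S::JAW. The values in both lines lay near or below the lower quartiles of the arrays, so PAP1 was not shown to be above background there and the size of its fall is uncertain. It fell by 0.64 ± 0.07 in 35S::GA20OX (adjusted p = 0.00386) and by 0.87 ± 0.07 in 35S::JAW (adjusted p = 2.6e-05), with both calls kept in all 9 fits with 1 array left out. PAP1 was the only called gene of the 7 measured MYB, bHLH and WD40 genes in either line. Its difference between the lines, -0.23 ± 0.07, was not called (adjusted p = 0.0603).

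Genes listed as restraints on flavonoid synthesis, including those on its anthocyanin branch alone, differed between the lines in both directions. Of 8 such genes 4 were higher and 2 lower in 35S::JAW than in 35S::GA20OX, against 6.71% and 6.52% of all loci. MYBL2, a repressor of anthocyanin genes, had means of 10.68 in 35S::JAW, 9.73 in 35S::GA20OX and 10.18 in wild type, and a difference between the lines of 0.95 ± 0.12 (adjusted p = 0.000285). The nitrogen-responsive repressor genes LBD39 (0.85 ± 0.12) and LBD38 (0.80 ± 0.12) were higher too. KFB-CHS, whose F-box protein marks the CHS enzyme for breakdown, was lower (-0.59 ± 0.14, adjusted p = 0.0163), a call lost without 35S::GA20OX replicate 1 or 35S::JAW replicate 2 (adjusted p up to 0.0606). The other called genes, LBD37 (0.27 ± 0.08) and SPL9 (-0.30 ± 0.08), are named after their values were seen, and their calls were lost in 5 and 7 of the 9 fits with 1 array left out (adjusted p up to 0.148). Against wild type, 3 of the 8 rose and 2 fell in 35S::JAW, where 4.34% of all loci rose and 3.98% fell. LBD38 rose by 0.62 ± 0.12, LBD39 by 0.57 ± 0.12 and MYBL2 by 0.50 ± 0.12, KFB-CHS had -0.70 ± 0.14, and the fifth call, SPL9 with -0.33 ± 0.08, is named after its value was seen. The calls of LBD39 and MYBL2 were lost without wild type replicate 1 or 3 or 35S::JAW replicate 1 (adjusted p up to 0.0929), and that of SPL9 without these or 35S::JAW replicate 2 (adjusted p up to 0.131). In 35S::GA20OX 0 of the 8 were called in limma, with 2 at an unadjusted p under 0.05. The largest difference there was that of MYBL2 (-0.45 ± 0.12, adjusted p = 0.178).

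Among 13 regulators and targets of light and UV-B signalling, 3 rose and 1 fell in 35S::JAW, against 4.34% and 3.98% of all loci. BBX25, a B-box protein that restrains HY5 activity, rose by 0.68 ± 0.09 (adjusted p = 0.000644), and RUP1, a repressor of the UV-B receptor, rose by 0.62 ± 0.11 (adjusted p = 0.00553). HYH, a relative of HY5, had -0.40 ± 0.08 (adjusted p = 0.0122), a call lost without wild type replicate 3 (adjusted p = 0.0589). Its 35S::JAW values of 4.44, 4.17 and 4.34 lay near or below the lower quartiles of the arrays. HYH was therefore not shown to be above background in 35S::JAW. BBX21, an activator of HY5, rose by 0.38 ± 0.09 (adjusted p = 0.0195), a call lost without wild type replicate 1 or 2 or 35S::JAW replicate 1 or 3 (adjusted p up to 0.0874). In 35S::GA20OX 0 of the 13 were called in limma and 0 had an unadjusted p under 0.05, with differences from -0.13 to 0.13. Between the lines BBX25 (0.62 ± 0.09), RUP1 (0.63 ± 0.11), BBX21 (0.52 ± 0.09) and HYH (-0.46 ± 0.08) were called in all 9 fits with 1 array left out, and COP1 was the other called gene, with -0.21 ± 0.06 and a call lost in 8 of those fits.

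Of the other flavonol genes, 9 measured of 10, which hold MYB11, UGT78D2, UGT89C1, RHM1 and further FLS genes, OMT1 alone was called in 35S::JAW and between the lines. In 35S::GA20OX 0 were called in limma, with 2 at an unadjusted p under 0.05. OMT1 methylates quercetin as well as lignin precursors. It read 11.05, 10.99 and 11.08 in wild type, 10.81, 10.74 and 10.58 in 35S::GA20OX, and 11.58, 11.59 and 11.59 in 35S::JAW. It rose by 0.55 ± 0.07 in 35S::JAW (adjusted p = 0.000681), had -0.33 ± 0.07 in 35S::GA20OX (adjusted p = 0.101) and differed between the lines by 0.88 ± 0.07 (adjusted p = 1.81e-05). Like F3'H and MYB111, it was highest in 35S::JAW and lowest in 35S::GA20OX. FLS5 had the largest difference in 35S::GA20OX, -0.55 ± 0.34, which came with 1 wild-type array at 5.62 beside 4.03 and 4.04.

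Upstream of CHS, the 8 genes of the general phenylpropanoid entry were not called in either line against wild type in limma, with 3 at an unadjusted p under 0.05 in 35S::GA20OX and 2 in 35S::JAW. These were PAL1 (-0.26 ± 0.08), PAL4 (0.26 ± 0.10) and 4CL2 (0.25 ± 0.08) in 35S::GA20OX, and PAL2 (0.18 ± 0.08) and 4CL2 (-0.19 ± 0.08) in 35S::JAW. PAL3, with the largest difference in 35S::JAW, had 0.26 ± 0.12. Between the lines the coumarate ligase gene 4CL2 was lower in 35S::JAW (-0.45 ± 0.08, adjusted p = 0.00346) and PAL3 was higher (0.43 ± 0.12, adjusted p = 0.0385). The PAL3 call was lost in 7 of the 9 fits with 1 array left out (adjusted p up to 0.141), all but those without 35S::GA20OX replicate 1 and 35S::JAW replicate 2. Of 12 genes of the lignin and sinapate branches, which use the same precursor, 1 rose and 3 fell in 35S::JAW, against 4.34% and 3.98% of all loci. F5H rose (0.28 ± 0.06), and CAD5 (-0.56 ± 0.13), 4CL5 (-0.40 ± 0.11) and CCOAOMT1 (-0.26 ± 0.06) fell. These 4 calls were lost in 3 (F5H, CAD5), 4 (CCOAOMT1) and 8 (4CL5) of the 9 fits with 1 array left out (adjusted p up to 0.119), each of them without wild type replicate 3. Between the lines 3 of the 12 were higher and 3 lower in 35S::JAW, against 6.71% and 6.52% of all loci. F5H at 0.32 ± 0.06 and CAD5 at -0.76 ± 0.13 were called in all 9 such fits. In 35S::GA20OX 0 of the 12 were called in limma, with 1 at an unadjusted p under 0.05. Of the 6 measured genes of the proanthocyanidin branch of the seed coat 0 were called in any comparison, with 2, 1 and 0 at an unadjusted p under 0.05. TT12 had the largest difference from wild type in each line, 0.34 ± 0.09 in 35S::GA20OX and 0.29 ± 0.09 in 35S::JAW.

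**Figure D3:**
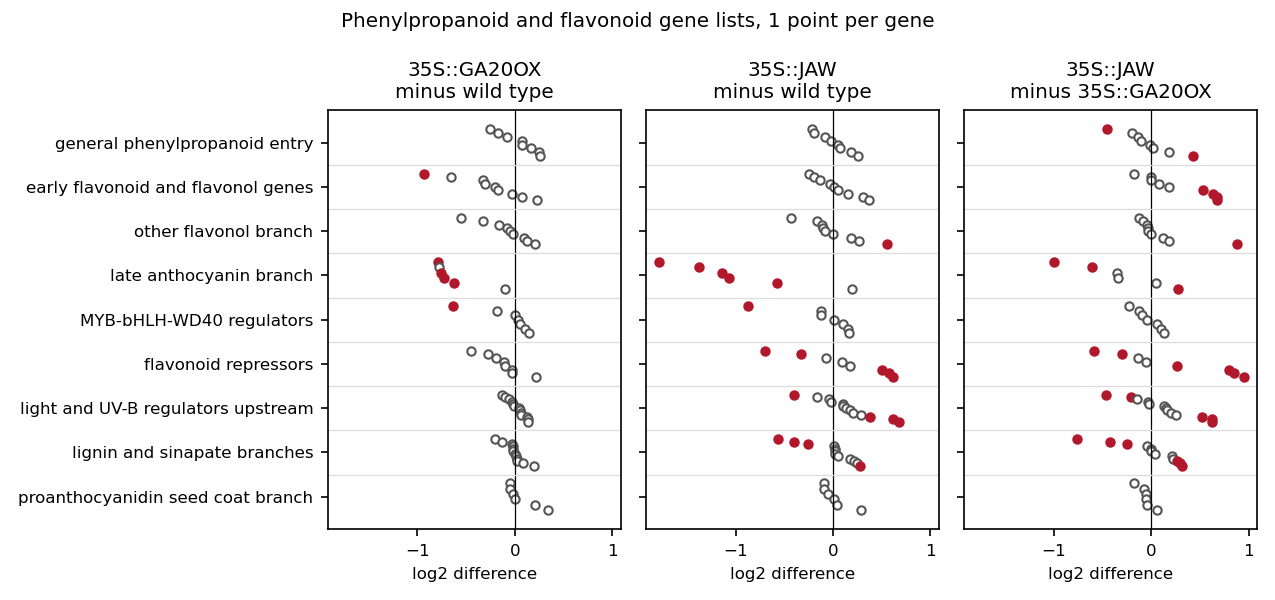
Log2 differences (horizontal axis) of the measured genes of 9 lists in the 3 comparisons, 1 point per gene, filled red where called. In the right panel 4 of the 9 early flavonoid and flavonol genes are called higher in 35S::JAW. Of the late anthocyanin branch DFR (-1.0) and GSTF12 (-0.61) are called lower and BGLU10 (0.28) is called higher.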

How the data were processed

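RMA is the tool that the submitters' processing notes name, with no version, and the deposited table of the authors holds expression on a log2 scale. RMA corrects background, quantile-normalises arrays and summarises probes, so a change shared by all genes is hidden. The table has 1 row for each of 20777 locus codes, of which 20508 were found in a RefSeq gene table of assembly TAIR10.1 used for names only. No genome build is named, so no coordinates are given, and no sequences were at hand. The number of arrays limits the precision (median SE of a difference 0.083), and no batch is recorded.

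Genotypes were compared in R 4.3.3 with limma 3.58.1 (lmFit on the 9 arrays together, with a mean for each genotype, then eBayes, two-sided, Benjamini-Hochberg over all loci). No dim locus was left out. On simulated data for 35S::JAW against 35S::GA20OX over 20777 loci, 73% of changes of 0.5 and 100% of changes of 1 were recovered. For 35S::GA20OX against wild type it was 79% and 99%, and for 35S::JAW against wild type 68% and 100%. Unchanged loci made up 18 of 196 calls for 35S::GA20OX against wild type, more than the threshold aims at, 4 of 172 for 35S::JAW against wild type and 6 of 179 between the lines. The simulation changed 100 loci of each size, whereas 69 were called in 35S::GA20OX, 1729 in 35S::JAW and 2749 between the lines. The adjusted p depends on that number. Its noise was drawn from the spread over all loci, whose median SD was 0.103. CHS (0.19), F3'H (0.18) and FLS1 (0.18) had larger SDs, so recovery of changes in these genes may be overstated. The 9 genes and all lists were chosen with earlier results of these data known. Named beside the 9 were the transgene and TCP genes, the up to 4 called genes with the smallest adjusted p per list and comparison, or the 1 or 2 uncalled ones with the largest difference, and the 5 loci most like CHS and most like the mean of the 7 enzymes. Outside this rule, 5MAT in 35S::JAW, COP1, LBD37, SPL9, PAL2 and, against wild type, 4CL2 were named after their values were seen. The alternatives changed the scaling (cyclic loess, median centring), the prior (with an intensity trend, robust), the loci (without the dimmest 40%), the threshold (adjusted p of 0.01), or the fit (6 arrays, the replicate number as a block, each array left out in turn). Background correction and a slide block were not run, since the values are already summarised.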

Additional observations from a re-analysis of the deposited data

How the results depend on the processing

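With 1 array left out, the number of the 9 genes called in 35S::GA20OX against wild type ranged from 0 to 2 (main value 1), in 35S::JAW against wild type from 0 to 1 (main value 0) and between the lines from 3 to 4 (main value 4). Over all loci it ranged from 22 to 79 in 35S::GA20OX (main value 69) and from 1074 to 1682 in 35S::JAW (main value 1729). Between the lines it ranged from 1841 to 2729 over all loci. In 35S::GA20OX the 9 gave 2 calls, CHS and FLS1, without the dimmest 40% of loci, with the intensity trend and robust prior, and in the fit to 6 arrays. They gave 0 at an adjusted p of 0.01. All loci gave 108 calls of 12466 without the dimmest loci, 205 with the trend, 58 in the fit to 6 arrays and 15 at 0.01. At 0.01 all loci gave 866 calls in 35S::JAW and 1371 between the lines (main value 2749). Without the dimmest 40% the 9 gave 2 calls between the lines, because F3'H, MYB12 and MYB111 were among the loci left out and 6 of the 9 were tested. Of the 12466 loci tested there, 3035 were called between the lines.

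No label links samples with the same replicate number beyond the number itself. The correlations of their deviations from the genotype means were -0.102 to 0.251, with 4 of 9 over 0.1. The same number gave the highest correlation in 9 of 18 cases. Whether such samples were handled together was not tested. With the replicate block, 2 of the 9 were called in 35S::GA20OX (FLS1 with an adjusted p of 0.0374) and 1 in 35S::JAW (F3'H). Over all 20777 loci the block gave 74 calls in 35S::GA20OX and 1811 in 35S::JAW. Of the called genes of the other lists, the block ended the calls of 5MAT in 35S::GA20OX and of COP1 between the lines (adjusted p = 0.0639). The fit to 6 arrays ended those of 5MAT, of 4CL5 in 35S::JAW and between the lines, and of PAL3, LBD37, SPL9 and COP1 between the lines. Median centring ended those of 5MAT and COP1. Of the called genes of the other lists, PAP1, 5MAT, HYH and RUP1 were left out with the dimmest 40%, so their calls were not tested there.

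Differences near 0 changed sign. Between the lines CHI was 0.014 and F3H 0.017 with median centring. With 1 array left out, CHI ranged from -0.10 to 0.031 in 35S::GA20OX, from -0.11 to 0.028 in 35S::JAW and from -0.046 to 0.020 between the lines, where F3H ranged from -0.073 to 0.078. In 35S::JAW against wild type CHIL ranged from -0.064 to 0.072, UGT78D1 from -0.038 to 0.12 and FLS1 from -0.23 to 0.025. Except where a call's cause is given above, the cause was not tested.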
